A study of Homo sapiens with 3 samples.

Results

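Circular RNAs (circRNAs) that were listed in the pancreatic cancer cell line SW1990 and in neither of its companion lines were described here. They were the back-splice junctions with at least 10 reads in SW1990 whose exact coordinates stood in neither the PANC-1 nor the HPDE list, after junctions on the mitochondrial genome, on the ribosomal RNA scaffold chrUn_gl000220 and in the RPPH1 interval on chromosome 14 had been left out. This rule gave 859 junctions of 17156 distinct junctions in the 3 lists, and they came from 763 named host genes. Because reads chose the junctions, their presence in SW1990 and absence elsewhere are a description and not a finding.

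The study sequenced total RNA from 3 human cell lines with 1 library each. SW1990 and PANC-1 are lines of pancreatic ductal adenocarcinoma (PDAC) and were grown in DMEM with fetal bovine serum and penicillin-streptomycin. HPDE is a line of pancreatic ductal epithelium without a tumour origin, grown in serum-free keratinocyte medium with epidermal growth factor, bovine pituitary extract and an antibiotic-antimycotic. TRIzol extraction and NEBNext Ultra library preparation were common to all 3 lines. No line had a replicate, so no difference below is a tested difference between lines. Intervals of shares treat junctions as independent draws, those of RPM cover counting error, and neither covers variation between libraries. Line and medium cannot be told apart between SW1990 and HPDE. Whether linear RNA was digested before sequencing is not given in the sources used here.

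A circRNA arises when the splicing machinery joins a splice donor to an acceptor that lies upstream of it, which closes 1 or more exons into a ring without free ends. A read across that joint shows exon sequence in reversed order and is called a back-splice read. Such rings are known to escape the exonucleases that degrade linear RNA, and their levels need not follow those of the linear transcripts of the host. Other products, such as rearranged or repeated template in library preparation, can also give reads in reversed order, and a junction list by itself does not separate them.

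The joints of 7 SW1990-only circRNAs, as predicted from annotated exons, are shown first. No reads were examined for them. They do not stand for the whole set, because junctions whose length fitted annotated splice sites held 33.2% of its reads, counted where the host was annotated. The first 6 are among the junctions with the most reads, 1 per host, whose length fitted 1 annotated exon pair with coding sequence on both sides, apart from DDB1, which follows with its partner. Each line reads 5′ to 3′ on the strand of the host, with the end of the last exon in lower case and the start of the first exon in capitals. Sequences are from GENCODE release 29 transcripts (GRCh38), and coordinates are the hg19 positions of the junctions as deposited. The junction of RPS3 (a protein of the small ribosomal subunit) lay at chr11:75111738-75112777 on the + strand and joined exon 3 to exon 2 of RPS3-217. IGFBP6 (an insulin-like growth factor binding protein) gave chr12:53494496-53494944 on the + strand, exons 2 to 3 of IGFBP6-201. LASP1 (a LIM and SH3 protein of the actin cytoskeleton) gave chr17:37070578-37071399 on the + strand, exons 5 to 6 of LASP1-201. ALDOA (the glycolytic enzyme aldolase A) gave chr16:30080627-30081350 on the + strand, exons 7 to 9 of ALDOA-210. MYL6 (a myosin light chain) gave chr12:56553371-56554104 on the + strand, exons 3 to 5 of MYL6-218. P4HB (protein disulfide isomerase of the endoplasmic reticulum) gave chr17:79801751-79801884 on the - strand, exon 3 of P4HB-201 alone. The seventh, of the chromatin remodelling ATPase SMARCA5, lay at chr4:144464662-144465125 on the + strand over exons 15 to 16 of SMARCA5-201 and is shown because this exon pair forms circSMARCA5, a widely studied circRNA.
RPS3: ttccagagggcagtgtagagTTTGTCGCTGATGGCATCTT
IGFBP6: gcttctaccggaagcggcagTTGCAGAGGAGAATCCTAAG
LASP1: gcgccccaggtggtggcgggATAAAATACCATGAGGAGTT
ALDOA: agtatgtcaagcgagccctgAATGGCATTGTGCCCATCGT
MYL6: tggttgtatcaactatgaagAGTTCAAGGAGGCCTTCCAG
P4HB: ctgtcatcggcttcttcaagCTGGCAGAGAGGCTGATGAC
SMARCA5: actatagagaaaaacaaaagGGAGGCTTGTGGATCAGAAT

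Some SW1990-only junctions shared 1 end with a junction of another list, and 3 such pairs are shown because the predicted joints make the difference visible. DDB1 encodes the adaptor of CUL4 ubiquitin ligases. Its SW1990 junction (chr11:61094251-61097546, - strand) ran over exons 3 to 5 of DDB1-201 and its PANC-1 junction (chr11:61089067-61097546) over exons 3 to 10. GALNT10 encodes a transferase that starts mucin-type O-glycans. Its SW1990 junction (chr5:153755837-153765990, + strand) ran over exons 5 to 7 of GALNT10-201 and its PANC-1 junction (chr5:153755837-153760191) over exons 5 to 6. RUVBL2 encodes an AAA+ ATPase of chromatin remodelling complexes. Its SW1990 junction (chr19:49507534-49510625, + strand) ran over exons 4 to 6 of RUVBL2-206 and its HPDE junction (chr19:49510275-49510625) over exons 5 to 6. The capitals again mark the start of the first exon, which is the same within the DDB1 and GALNT10 pairs, while the lower-case end of the last exon is the same within the RUVBL2 pair.
DDB1 SW1990: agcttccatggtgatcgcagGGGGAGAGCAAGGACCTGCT
DDB1 PANC-1: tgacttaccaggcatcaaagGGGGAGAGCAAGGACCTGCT
GALNT10 SW1990: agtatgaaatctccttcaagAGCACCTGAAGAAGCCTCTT
GALNT10 PANC-1: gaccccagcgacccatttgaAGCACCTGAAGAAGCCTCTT
RUVBL2 SW1990: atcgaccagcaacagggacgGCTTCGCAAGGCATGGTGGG
RUVBL2 HPDE: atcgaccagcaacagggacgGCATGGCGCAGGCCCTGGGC

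In the SW1990 list 3764 junctions held 1273083 back-splice reads, of which 84.2% lay in the loci left out, against 79.0% of 1885511 reads in PANC-1 and 81.2% of 1408352 reads in HPDE. Outside those loci SW1990 kept 200920 reads, PANC-1 395610 and HPDE 264156. Values are in RPM, reads per M reads (M for mega) of a total set by the authors, and 1 read was worth 0.0208 RPM in SW1990, 0.0273 in PANC-1 and 0.0240 in HPDE. An RPM counts reads over 1 joint and is not divided by length. Of 10 ductal epithelium markers, 4 hosted a listed SW1990 junction (CDH1, EPCAM, KRT7 and MUC1, 609 reads together). Of 8 mesenchymal markers 1 did (ZEB1, 36 reads), and none of the fibroblast, immune, endothelial, neural, acinar and islet markers did. A gene without a listed junction may still be expressed.

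The SW1990-only junctions were 44.1% of the 1948 kept SW1990 junctions with at least 10 reads (95% Clopper-Pearson interval 41.9 to 46.3%). The same rule gave 3827 of 5237 junctions for PANC-1 (73.1%, 71.9 to 74.3%) and 915 of 1923 for HPDE (47.6%, 45.3 to 49.8%). Absence from a list was common even for well-covered junctions. Of 364 junctions with at least 20 reads in both PANC-1 and HPDE, 219 (60.2%, 54.9 to 65.2%) were listed in SW1990. Of 279 with at least 20 reads in both SW1990 and HPDE, 227 (81.4%) were listed in PANC-1, and of 372 with at least 20 reads in both SW1990 and PANC-1, 225 (60.5%) were listed in HPDE. A junction listed in 1 line alone is thus not shown to be lacking in the others.

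Reads were concentrated in few of the junctions. The 859 held 129082 reads, 64.2% of the kept SW1990 reads, and their median was 27 reads (quartiles 15 and 71.5) or 0.561 RPM, with a range of 0.208 to 263 RPM. The 21 junctions with at least 1000 reads held 54.8% of the reads of the set and the 5 with the most reads 32.4%. At the other end 334 junctions had 10 to 19 reads. Just inside the threshold 56 junctions had 10 reads, among them 1 of ADAM9 (a membrane metalloprotease) and 1 of AP1S2 (a clathrin adaptor subunit), and just outside it 46 SW1990-only junctions had 9 reads, among them APBB2 and AZI1. With the other libraries set to a limit of 3 reads (0.0818 RPM in PANC-1, 0.0719 RPM in HPDE), the computed fold over PANC-1 started at 2.54, with a median of 6.86. Over HPDE it started at 2.89, with a median of 7.80. With kept back-splice reads as library size, the medians were 17.7 over PANC-1 and 11.8 over HPDE. These folds concern the exact coordinates alone, and where a junction went unlisted for reasons besides read number they set no limit. A fold of at least 2 in favour of SW1990 was found for 19.3% of the 6650 junctions compared with PANC-1 and for 43.9% of the 3512 compared with HPDE. All 859 passed it in each comparison, which the rule fixes.

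Of the 15 junctions with the highest RPM, 1 per host, 5 had a histone gene as the listed host. HIST1H4B, which encodes histone H4, led with 12669 reads (263 RPM, 95% Poisson interval 259 to 268) at chr6:26027158-26027478. HIST1H1C, which encodes a linker histone, followed with 11287 reads (234 RPM, 230 to 239), and HIST1H3H, which encodes histone H3, with 7414 reads (154 RPM). The HIST1H3H interval spanned 6006 bases, beside 1237 bases for the longest annotated exon of this host, so it reached beyond any such exon. DCBLD2, a transmembrane receptor-like protein, had 7058 reads (147 RPM) at chr3:98620290-98620503. The next were RPS2 and RPL13, proteins of the small and large ribosomal subunits, at 71.2 and 68.1 RPM. HIST1H2BJ (histone H2B) reached 54.2 RPM and HIST1H1B (linker histone) 47.9 RPM. From ACTG1 (cytoplasmic gamma-actin) at 43.4 RPM the values ran closely downward through LMNA (lamins A and C of the nuclear lamina) at 43.2, the glycolytic enzyme PKM at 42.6, the actin crosslinker FLNA at 40.3 and the lactate transporter SLC16A3 at 37.2 RPM. PLEC, the cytolinker plectin, had 34.1 RPM and PHLDA1 29.8 RPM. Histone and ribosomal protein genes have near-identical copies, and reads could be split or shared between copies by the authors' mapping, so the host named for such a junction is uncertain.

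**Figure D1:**
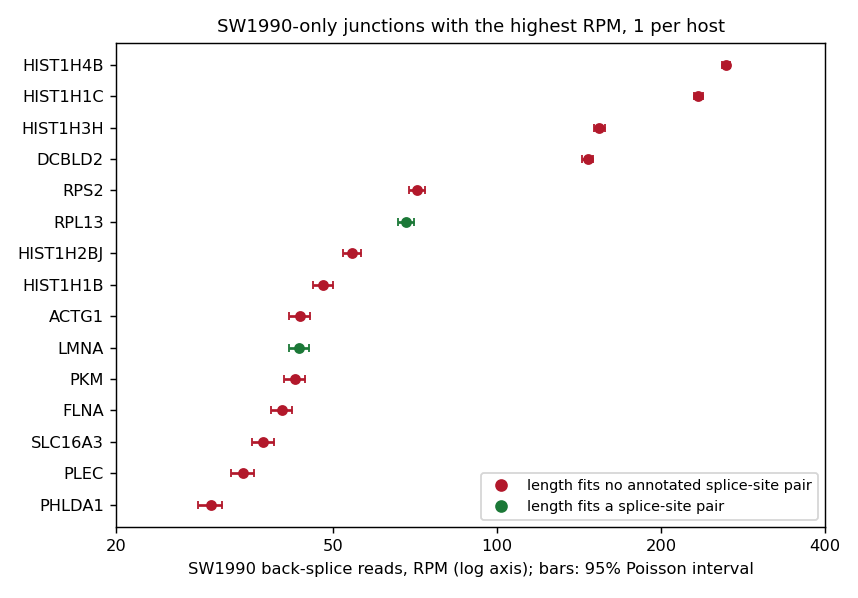
SW1990-only junctions with the highest RPM, 1 per host, on a log axis, with 95% Poisson intervals for 1 library. Red points mark junctions whose length fitted no annotated splice-site pair of the host and green points those that fitted one: of the 15, RPL13 (68.1 RPM) and LMNA (43.2 RPM) are green.

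Junction length was not used by the rule and was set beside that of other junctions. The median genomic length of the SW1990-only junctions was 2485 bases (quartiles 553 and 6962), with a range of 82 to 77673. SW1990 junctions with at least 10 reads that were found in another list, 1089 in number and called shared below, had a median of 3128 bases (1074 and 8577). The median was 7061 bases for PANC-1-only and 2874 bases for HPDE-only junctions. Short junctions were frequent in the set. Those under 500 bases made up 23.2% of SW1990-only junctions (20.4 to 26.1%), against 12.2% (10.3 to 14.3%) of shared SW1990, 7.79% (6.96 to 8.68%) of PANC-1-only and 18.1% (15.7 to 20.8%) of HPDE-only junctions. The differences between these sets were not tested, and overlap or separation of the intervals does not decide them. The longest junctions of the set were an interval on chromosome 13 without a symbol (77673 bases, 13 reads), PLXNA2 (a semaphorin co-receptor, 75674 bases, 60 reads), COL13A1 (a transmembrane collagen, 72750 bases, 38 reads), ZMYND11 (a reader of histone methylation, 69095 bases, 14 reads) and FOCAD (54917 bases, 11 reads).

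**Figure D2:**
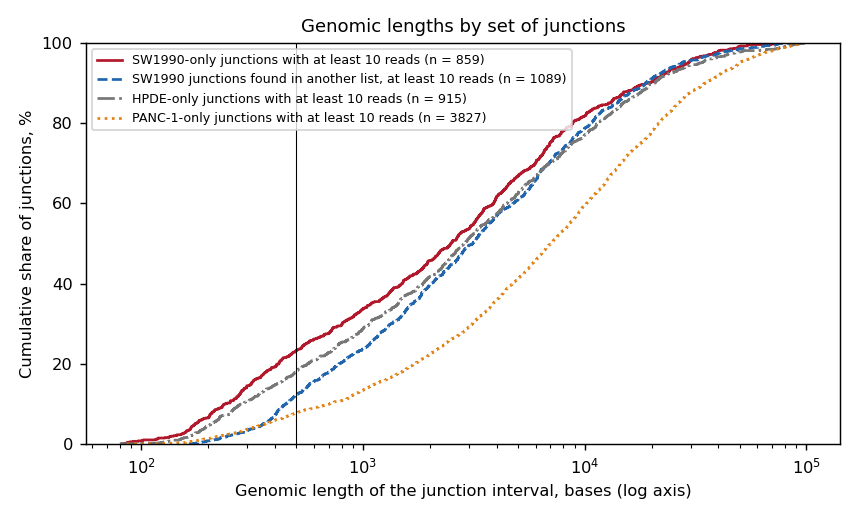
Cumulative share of junctions by genomic length on a log axis for 4 sets, with a vertical line at 500 bases. At that line the SW1990-only curve stands highest at 23.2%, above HPDE-only (18.1%), shared SW1990 (12.2%) and PANC-1-only junctions (7.79%).

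Whether the junctions fell on annotated splice sites was read from their lengths. A length was said to fit if it equalled the distance from an annotated splice acceptor to a splice donor downstream of it in 1 GENCODE transcript of the host. This measure was chosen after the data had been seen, because no hg19 genome was at hand for reading the bases beside each junction. A fit was found for 635 of 840 SW1990-only junctions whose host was in the annotation (75.6%, 72.5 to 78.5%) and for 991 of 1072 shared SW1990 junctions (92.4%, 90.7 to 94.0%). Lengths shifted by 1 to 10 bases in either direction fitted in 0.833 to 2.5% of SW1990-only and 0.466 to 1.77% of shared junctions. A further check took all kept SW1990 junctions with a single possible exon pair, at any read number and whether or not listed elsewhere. In 576 of 600 hosts with several of these (96.0%), the starts lay at 1 common distance from the exon starts of the annotation. Positions had not been used for the fit. The check was not made for SW1990-only junctions alone. A base gained or lost between genome builds would break a fit. The shared junctions had been found in a second library, so the comparison is between junctions with and without that support, and not between lines.

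**Figure D3:**
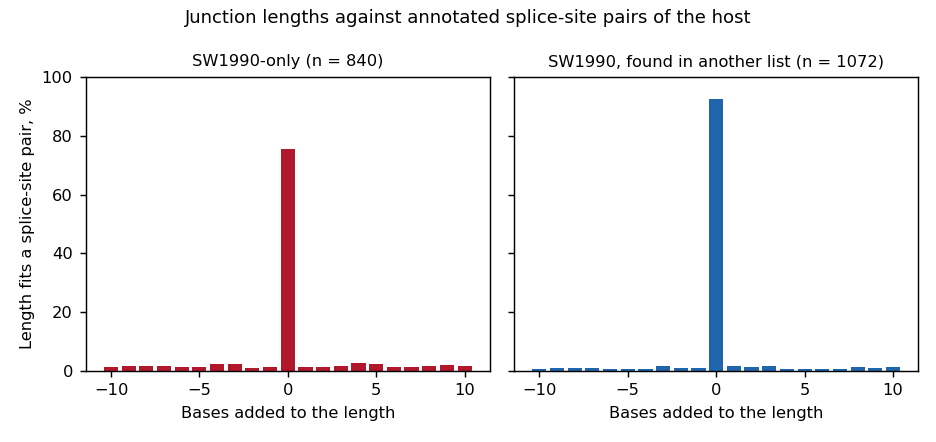
Share of junction lengths that equal an annotated acceptor-to-donor distance of the host, for the length as deposited (0) and after adding -10 to 10 bases, in SW1990-only junctions (left) and shared SW1990 junctions (right). The bar at 0 reaches 75.6% on the left and 92.4% on the right, and no other bar exceeds 2.5%.

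The share of fits was lower in SW1990-only than in shared junctions at both lengths and in every read class, with the widest gaps under 500 bases and at 200 reads or more. Under 500 bases, 51.5% (44.3 to 58.7%) of SW1990-only junctions fitted, against 97.7% (93.5 to 99.5%) of shared ones. At 500 bases or more the shares were 82.9% (79.8 to 85.7%) and 91.7% (89.8 to 93.4%) for SW1990-only and shared junctions. In the SW1990-only set the share was lower at higher read numbers: 82.7% at 10 to 19 reads, 81.0% at 20 to 49, 71.7% from 50 to under 200 and 42.9% (32.5 to 53.7%) at 200 or more. Among shared junctions it was 91.4, 92.9, 94.4 and 88.2% (76.1 to 95.6%) in the same classes. Of the reads of SW1990-only junctions, 33.2% lay in fitted ones, against 92.4% of the reads of shared junctions. SW1990-only junctions that fitted had a median of 3147 bases and 24 reads, and those that did not had a median of 706 bases and 46 reads. In SW1990-only junctions under 10 reads, 82.4% (79.8 to 84.8%) fitted.

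**Figure D4:**
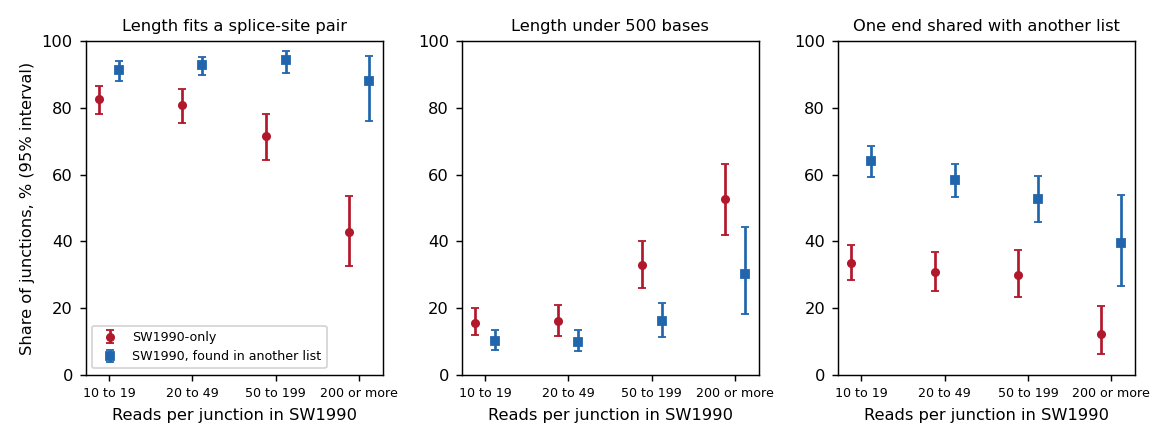
Share of SW1990-only (red circles) and shared SW1990 junctions (blue squares) by reads per junction that fitted a splice-site pair, were under 500 bases long, or shared an end with another junction of PANC-1 or HPDE, with 95% Clopper-Pearson intervals. At 200 reads or more the red and blue points stand at 42.9 and 88.2% for the fit, 52.7 and 30.2% for short length, and 12.1 and 39.6% for a shared end.

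The 205 SW1990-only junctions without a fit fell into 3 kinds of host. In 14, with 39216 reads, no transcript of the host had 3 or more exons, so the annotation offers no acceptor upstream of a donor. They held 30.5% of the reads of all SW1990-only junctions with an annotated host and included the histones HIST1H4B, HIST1H1C, HIST1H3H, HIST1H2BJ and HIST1H1B. PHLDA1, TOR4A, SFN (the epithelial 14-3-3 sigma protein), PTRF (cavin-1 of caveolae) and CENPB (a centromere protein) were also in this group, with 268 to 1433 reads each. In 121 junctions, with 41033 reads, the length did not exceed the longest exon of the host. DCBLD2 (214 bases beside an exon of 3958), RPS2 (419 beside 760), ACTG1 (371 beside 863), PKM (423 beside 2106) and FLNA (235 beside 1666) led this group, followed by SLC16A3, PLEC, LASP1, TGM2 (transglutaminase 2) and GAPDH. In the other 70, with 5491 reads, the junction was longer than any exon of the host. The leading ones were ATAD3A, a mitochondrial ATPase (773 reads, 38683 bases), EIF6 (550 reads) and KRT7 (520 reads). ATAD3A lies beside near-identical paralogs, so its host assignment is uncertain. The 81 shared junctions without a fit numbered 1, 26 and 54 in the same 3 groups.

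The exon structure of fitted junctions was read from the annotation. Of 626 SW1990-only junctions with a single possible exon pair, 9.90% (7.68 to 12.5%) consisted of 1 exon, against 8.76% (7.06 to 10.7%) of 982 shared ones. Both sets had a median of 2 exons (quartiles 2 and 3). The predicted spliced length had a median of 323.5 bases (251 and 458.75) in SW1990-only and 344 bases (291 and 439.75) in shared junctions. The first exon was exon 2 of the transcript in 21.7% (18.6 to 25.2%) of SW1990-only and 28.7% (25.9 to 31.7%) of shared junctions. These differences were not tested, and the intervals treat junctions as independent draws. Exon 2 is the first exon with an acceptor and a common start of known circRNAs.

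Some SW1990-only junctions had an end at the same coordinate as an end of a different junction in another list. A shared coordinate does not by itself show a splice site. An end identical to that of a different junction in PANC-1 or HPDE was found for 255 of 859 SW1990-only junctions (29.7%, 26.6 to 32.9%), against 58.4% (55.4 to 61.3%) of shared SW1990, 21.0% (19.8 to 22.4%) of PANC-1-only and 33.1% (30.1 to 36.3%) of HPDE-only junctions. No test of these differences was made. Shared junctions were chosen for being listed in PANC-1 or HPDE, which places them where those lists hold junctions, and a longer list offers more ends to match. Of the 255, 186 had partners in PANC-1 alone, 26 in HPDE alone and 43 in both. The lower coordinate was shared in 112, the higher in 110, and both, with different partners, in 33. The partner junction was itself listed in SW1990 for 31 of the 255. Of SW1990-only junctions with a shared end, 87.3% (82.5 to 91.1%) fitted a splice-site pair, and of those without, 70.6% (66.7 to 74.2%).

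The 5 junctions with a shared end and the most reads illustrate how much of a partner was seen elsewhere. C19orf21, now named MISP, a protein of spindle orientation, had 906 reads (18.8 RPM) in SW1990, while its HPDE partner over exons 2 to 3 of MISP-201 had 861 reads (20.6 RPM). The DDB1 junction shown above had 553 reads (11.5 RPM) in SW1990, and its PANC-1 partner had 16 reads (0.436 RPM). GALNT10 had 533 reads (11.1 RPM) in SW1990, and its PANC-1 partner 100 reads (2.73 RPM). RUVBL2 had 439 reads (9.12 RPM) in SW1990, while the same partner had 87 reads (2.37 RPM) in PANC-1 and 171 reads (4.10 RPM) in HPDE. A PLEC junction had 380 reads (7.89 RPM) in SW1990, and a PANC-1 junction with the same start had 1930 reads (52.6 RPM). In DDB1, GALNT10 and RUVBL2 the SW1990 junction was the more abundant of the pair, in C19orf21 the values were close, and in PLEC the partner was higher. The RPM of different lines rest on totals that the sources do not define.

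A near miss at both ends was rare. In 8 junctions both ends lay within 10 bases of a junction of another list, and these would count as found elsewhere under a looser match. The largest was HIST1H1C, whose 11287 reads at chr6:26056036-26056209 stood beside 2388 reads (65.1 RPM) at chr6:26056044-26056206 in PANC-1. E2F1, a transcription factor of the G1/S transition, had 64 reads, with 31 reads in PANC-1 at a start 4 bases away. FER1L4, a pseudogene of the ferlin family, had 33 reads, with 10 reads in HPDE at an end 4 bases away. In some other near misses the partner was the higher: PTP4A2, a protein tyrosine phosphatase, had 22 reads (0.457 RPM) in SW1990, with 215 reads (5.86 RPM) in PANC-1 at a start 4 bases away. TMCC1 had 23 reads in SW1990 and 37 in HPDE, and NRIP1, a nuclear receptor corepressor, 10 in SW1990 and 12 in HPDE. In the remaining ones the SW1990 junction was the higher: PRRC2B had 17 reads, with 4 in HPDE, and an SDHA junction 12, with 3 in PANC-1. In 5 of the 8 at least 1 end was moved by 4 bases. The SW1990 length fitted an exon pair in 1 of the 8, and the partner length fitted a single one in 5.

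Most reads of the set lay away from any junction listed elsewhere. Overlap with a junction of another list was found for 387 of 859 SW1990-only junctions (45.1%, 41.7 to 48.5%), against 67.1% (64.2 to 69.9%) of shared SW1990, 33.0% (31.5 to 34.5%) of PANC-1-only and 49.5% (46.2 to 52.8%) of HPDE-only junctions. Where a reciprocal overlap of at least 50% was asked, the share of SW1990-only junctions was 14.6%. The 472 SW1990-only junctions without overlap held 88923 reads, 68.9% of the reads of the set, and 321 of the 457 with an annotated host fitted a splice-site pair. HIST1H4B, HIST1H3H, DCBLD2, RPS2, RPL13, ACTG1 and LMNA were among them.

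Hosts usually gave 1 SW1990-only junction. Of 763 hosts, 697 had 1, 53 had 2 and 13 had 3 or more. A further SW1990 junction that was found in a second list was present for 180 hosts (23.6%, 20.6 to 26.8%). PLEC had the most, with 6 junctions, 4364 reads and 90.7 RPM together, and 1 of the 6 fitted a splice-site pair. LASP1 had 3 junctions with 3361 reads, of which the 643 reads printed above lay in the fitted one, and EEF2, the ribosomal translocation factor, had 3 with 866 reads, of which 2 were the single exons 3 and 4. GCN1L1 (an activator of the integrated stress response kinase GCN2) had 3 with 426 reads, PPP1R16A (a phosphatase regulatory subunit) 3 with 317, MPRIP (a RhoA and myosin phosphatase interactor) 3 with 296, SPG7 (a mitochondrial protease) 3 with 200 and WWC1 (the Hippo pathway protein KIBRA) 3 with 171. All 3 junctions of PPP1R16A, SPG7 and WWC1 fitted splice-site pairs. Among hosts with no SW1990 junction at identical coordinates in a second list, HIST1H4B, HIST1H1C, HIST1H3H, PLEC and RPS2 had the most summed reads, and of their junctions 1 of PLEC fitted. PANC-1 did list other junctions of HIST1H1C and PLEC, given above.

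Host genes were next grouped by function. The lists were chosen with earlier results of these data known, no enrichment was tested, and each share is the SW1990-only part of the SW1990 junctions of a list with at least 10 reads, beside 44.1% for all hosts. The lists with the highest shares were ribosomal proteins (7 SW1990-only and 1 shared junction, 87.5%) and histones (6 and 1, 85.7%). The 6 histone junctions held 36396 reads, 28.2% of the reads of the set, with a median of 104 RPM beside 0.561 RPM for all SW1990-only junctions, and none fitted a splice-site pair. The sixth was H2AFY, the variant macroH2A1, at 2.35 RPM. The ribosomal protein junctions had a median of 8.27 RPM and 2 of 7 fitted, those of RPL13 (exons 2 to 3) and RPS3. A second RPS2 junction had 398 reads (8.27 RPM).

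By number of junctions, genes of epithelial identity and of attachment to the basement membrane gave mostly SW1990-only ones. The list of keratins and epithelial identity genes held 12 SW1990-only and 4 shared junctions at a minimum of 10 reads, with a median of 0.862 RPM, and 9 of the 12 fitted. KRT7, a keratin of simple ductal epithelia, led with 520 reads (10.8 RPM) over 2930 bases and no fit. The catenin CTNND1 (p120), which stabilises cadherins at the membrane, had 193 reads (4.01 RPM) in its exon 6. The keratin KRT80 had 78 reads without a fit and the polarity protein LLGL2 72 reads in its exon 6. CDH1, which encodes E-cadherin, had 43 reads over exons 14 to 15, and ESRP1, an epithelial splicing regulator, 41 reads over exons 7 to 9. The list of integrins, laminins and hemidesmosome genes held 14 SW1990-only and 5 shared junctions (73.7%), with a median of 3.52 RPM, and 6 of the 14 fitted. The 4 most abundant were all of PLEC, which links hemidesmosomes to intermediate filaments, at 34.1, 19.7, 13.4 and 11.8 RPM, and the second covered exons 21 to 22. Below PLEC stood LAMA5, a laminin chain, and the integrin ITGA3 with 171 and 168 reads and no fit, and ITGB4, the hemidesmosome integrin, with 163 reads in its exon 13. PLEC gave 6 of the 14. SW1990-only junctions held 23.1% of the kept SW1990 reads of LLGL2, 25.1% of those of LAMA5 and 32.1% of those of ITGB4. They held 100% for KRT7, CTNND1, KRT80, CDH1, ESRP1, ITGA3 and PLEC. Apart from PLEC, each of these hosts had 1 listed SW1990 junction, which fixes its share at 100%. These are shares of SW1990 reads alone. HPDE listed a CTNND1 junction with the same end at 156 reads (3.74 RPM).

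Matrix, cytoskeletal and secretory genes varied in share. Matrix and protease genes held 6 SW1990-only and 4 shared junctions (60.0%), led by MMP14, a membrane-bound collagenase, with 640 reads (13.3 RPM) and no fit, and by P4HB with 566 reads (11.8 RPM). GAS6, the ligand of the receptor AXL, had 32 reads over exons 5 to 6, and ADAM9 29 reads over exons 12 to 17. Actin, myosin, filamin and focal adhesion genes held 17 and 30 (36.2%), but 10522 reads lay in the 17, and 11 fitted. ACTG1, FLNA and LASP1 (28.7 RPM in its largest junction) led this list together with LMNA. Genes of folding and secretion in the endoplasmic reticulum held 8 and 15 (34.8%), and all 8 fitted. PDIA3 and PDIA6, disulfide isomerases, had 82 and 64 reads, and SSR2, a translocon-associated protein, 74.

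Metabolic and protein synthesis genes were close to the overall share or above it. Glycolysis and metabolism genes held 15 SW1990-only and 13 shared junctions (53.6%), with a median of 6.15 RPM. PKM (42.6 RPM), SLC16A3 (37.2 RPM) and GAPDH (27.8 RPM) had no fit, while ALDOA (12.3 RPM), the glucose transporter SLC2A1 (334 reads, exons 3 to 4) and the ATP synthase subunit ATP5B (332 reads, exons 2 to 5) had one. Translation factors and tRNA synthetases held 10 and 11 (47.6%), led by EIF6 (11.4 RPM) and by the EEF2 exons (7.23 and 7.19 RPM), with EIF4G1, the scaffold of the cap-binding complex, at 3.78 RPM. Chaperone genes held 7 and 5 (58.3%), and 6 of the 7 fitted. HSP90AB1 had 208 reads over exons 9 to 10, STIP1 127, the mitochondrial TRAP1 91 and HSPA9 84.

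DNA replication and repair genes gave many low junctions that nearly all fitted. They held 21 SW1990-only and 12 shared junctions (63.6%), with a median of 0.332 RPM and a range of 0.208 to 3.34 RPM, and 20 of the 21 fitted. MCM5, a subunit of the replicative helicase, had 161 reads over exons 4 to 5. CDT1, which loads that helicase, had 149 reads in exon 9, LIG1, the replicative ligase, 106 over exons 9 to 10, and POLD1, the catalytic subunit of DNA polymerase delta, 103 in exon 15. PRKDC, the DNA-dependent protein kinase, had 3 junctions of 12 to 16 reads. The BRCA1 junction had 11 reads and was the 1 of the 21 without a fit. At a minimum of 20 reads, 8 of the 21 were left. Cell cycle, mitosis and centrosome genes held 11 and 26 (29.7%), led by CENPB (5.57 RPM), cyclin D1 (CCND1, 72 reads), E2F1 (64 reads) and the phosphatase CDC25B (42 reads).

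Chromatin and RNA-processing genes lay near or below the overall share. Chromatin regulators held 19 SW1990-only and 36 shared junctions (34.5%), with a median of 0.332 RPM, and 18 of 19 fitted. The remodelling ATPase SMARCA5 had 214 reads (4.45 RPM) over exons 15 to 16, the joint printed above, the demethylase KDM4B 88, UHRF1, a partner of maintenance DNA methylation, 74, and the acetyltransferase EP300 40 over exons 2 to 10. RNA-binding, splicing and helicase genes held 23 and 35 (39.7%), and 19 of 23 fitted. SNRNP70, the U1 snRNP protein, led with 1093 reads (22.7 RPM), followed by SON with 423 and DDX39A with 172, all without a fit, and by the splicing factor PRPF6 with 163 over exons 12 to 14. Nuclear pore and transport genes held 9 and 12 (42.9%), all 9 fitted, and NUP153, TPR, IPO5 and TNPO3 had 28 to 41 reads.

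Signalling, ubiquitin and vesicle genes were represented by moderate junctions. TGF-beta, WNT and Hippo genes held 10 SW1990-only and 12 shared junctions (45.5%), and all 10 fitted. LRP5, a WNT co-receptor, had 136 reads over exons 3 to 7, SKI, a repressor of SMAD transcription, 113 over exons 2 to 5, and WWC1 83 and 64 in its leading junctions. Receptor kinase, RAS and PI3K genes held 11 and 18 (37.9%), and 10 of 11 fitted. EPHA2, an ephrin receptor, had 398 reads (8.27 RPM) in exon 3 and 123 over exons 7 to 8, and TSC2, an inhibitor of mTOR signalling, 145 over exons 16 to 30. Ubiquitin ligases and deubiquitinases held 16 and 27 (37.2%), with DDB1 first, then RNF40 with 54 reads and RNF213 with 47. Vesicle and endocytosis genes held 16 and 30 (34.8%), led by APLP2, an amyloid precursor-like protein, with 393 reads over exons 5 to 12, EXOC7 of the exocyst with 78, HGS of endosomal sorting with 68 and the lysosomal LAMP1 with 57.

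In the lists of genes known for circRNAs or for PDAC, the shares lay below the 44.1% of all hosts. The PDAC share rests on few junctions, and neither difference was tested. Hosts of widely reported circRNAs held 11 SW1990-only and 50 shared junctions (18.0%), with a median of 0.519 RPM, with SMARCA5 first and ESRP1 among them. PDAC driver genes held 2 and 7 (22.2%): SMARCA4, a SWI/SNF ATPase, with 13 reads over exons 14 to 15, and the DNA damage kinase ATM with 10 reads over exons 43 to 47. Interferon and antigen presentation genes held no SW1990-only and 2 shared junctions.

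**Figure D5:**
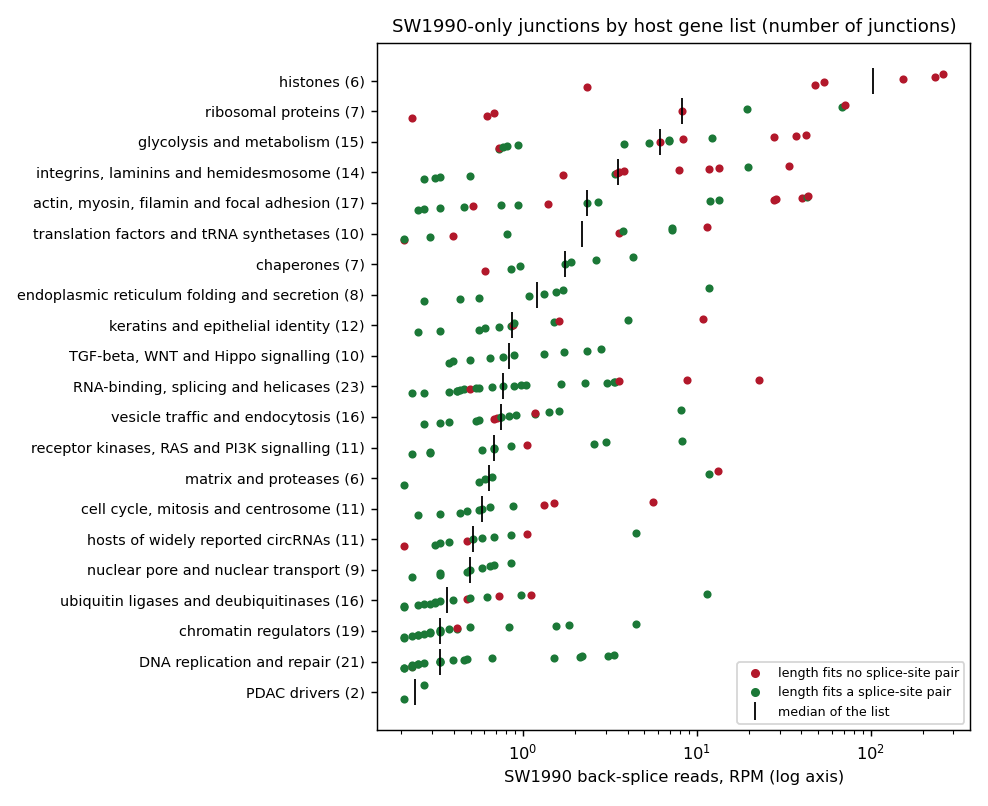
SW1990 RPM of each SW1990-only junction by host gene list on a log axis, with the number of junctions in brackets and the list median as a black bar, ordered by median. Histone junctions reach 263 RPM and are all red (no fitted splice-site pair), while the 20 green points of DNA replication and repair lie at 3.34 RPM or below.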

How the data were processed

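Back-splice junctions of 3 cell lines, 1 library each, were taken from the deposited tables, which list hg19 positions. Per the submitters' processing notes, TopHat2, TopHat and HTSeq were used on hg19, and neither versions nor a circRNA caller are given. Per the file headers, SW1990 values are given as a read count and as RPM beside a host symbol, and PANC-1 and HPDE values as RPM. The authors' RPM imply library totals of 48.1 M reads in SW1990, 36.7 M in PANC-1 and 41.7 M in HPDE (M for mega), and which reads make up these totals is not recorded. RPM values were whole multiples of 1 read, within 0.05 reads, in 100% of cases, and the recovered reads equalled the deposited count for 3764 of 3764 SW1990 junctions.

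Junctions were matched by identical coordinates, read as 1-based. Shares carry 95% Clopper-Pearson intervals, which treat junctions as independent draws. RPM carry 95% Poisson intervals, which cover counting error only. Neither covers variation between libraries or lines. A library that did not list a junction was set to 3 reads for a fold. Junctions compared between libraries had at least 10 reads in both together. An exact conditional binomial test on the recovered reads (two-sided, Benjamini-Hochberg adjusted p under 0.05, fold of at least 2) compares 2 libraries, not lines: it called 1213 junctions higher in SW1990 than in PANC-1 and 1507 higher than in HPDE, against 1286 and 1543 by the fold of 2 alone.

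Hosts came from the SW1990 symbol column; for 12 of the 859 junctions it was empty and for 2 it held a date. Symbols were found in GENCODE release 29, directly or through RefSeq synonyms (GRCh38.p14), for 840 of 859. Only distances within transcripts were used, and no coordinates were converted. The script for exon pairs was run on simulated junctions drawn from annotated exon pairs. Their recovery was fixed by construction, so this checks the code and not the measure. Python 3.11.15, pandas 2.3.3, numpy 2.4.6, scipy 1.17.1 and matplotlib 3.10.9 were used.

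The junctions and the 22 gene lists were chosen with earlier results of these data known. Named were the 15 junctions with the highest RPM (1 per host), the 8 hosts with most junctions, the 4 highest of each list, the 5 longest, the 3 near and 5 end-sharing junctions with most reads, 2 each at 10 and 9 reads, and the 5 leading junctions and hosts in no second list. Further junctions named within lists (H2AFY, CDH1, ESRP1, LAMA5, ITGA3, ITGB4, SLC2A1, ATP5B, PRKDC and BRCA1) were chosen after their values were seen. So were the leading junctions without a fit, the near misses PTP4A2, TMCC1, NRIP1, PRRC2B and SDHA, the sequence pairs and the SMARCA5 joint. Some junctions and sequences that these rules select are not reported here.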

Additional observations from a re-analysis of the deposited data

How the results depend on the processing

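With a minimum of 20 reads the set held 525 junctions, and 1828 with none, while the SW1990-only share of SW1990 junctions was 49.4% with none. The share of SW1990 reads was 62.0% at a minimum of 20 reads and 94.3% with the left-out loci kept in. At 20 reads 28.0% of SW1990-only junctions were under 500 bases and 71.1% fitted a splice-site pair. Their median length was 1764 bases at that minimum, against 2485 bases at 10 reads. A reciprocal overlap of 50% was met by 14.6%. With kept back-splice reads as library size, the median fold was 17.7 over PANC-1 and 11.8 over HPDE. Without the 5 leading histone junctions 46.3% of reads lay in fitted junctions. The cause was not tested. Of 21 lists, 15 kept their number of junctions within 1.5 times at 20 reads and 6 fell further. The alternatives to exact ends, to 1 value per junction, to acceptor and donor from 1 transcript and to the fold rule left the values close to those reported. The fit measure and its alternatives, the histone alternative and the exact test were chosen after seeing the data. No paired analysis was possible because each line had 1 library. The check of GT-AG bases beside the junctions was not run, for want of an hg19 genome. A junction of 10 reads has a wide counting interval, so low junctions limit every count at the threshold.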
